A study of Mus musculus with 45 samples.

Results

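A set of 10 germline genes that are known from other work to be silenced by promoter DNA methylation in somatic cells, Dazl, Ddx4, Mael, Asz1, Stk31, Sycp1, Sycp3, Hormad1, Tex101 and Slc25a31, were followed through the differentiation of male mouse embryonic stem cells (ESCs). They are protein-coding genes on chromosomes 1, 3, 6, 7, 10, 13 and 17, and no exon of theirs overlaps another gene on the same strand. They were taken by gene symbol, and all 10 were present among the 35372 genes counted in each of 45 strand-specific total RNA-seq libraries. The cells were wild-type E14tg2a ESCs, a single male line of 129/Ola origin (XY1), carrying no transgene or induced deletion. Before differentiation they were kept either in 2iL, which is serum-free N2B27 medium with the inhibitors CHIR99021 and PD0325901 plus LIF, or in SL, which is serum plus LIF. From each medium they were differentiated along 3 protocols, as embryoid bodies in suspension in serum without LIF (labelled EB), as an adherent culture in N2B27 with Fgf2 and Activin A (labelled EpiSC), or as an adherent culture in N2B27 alone (labelled Neural). Libraries were made at days 0, 1, 1.5, 2, 2.5, 3, 5 and 7. Each medium, protocol and day had 1 library, except that 1 library served all 3 protocols at day 0 in SL and that the 45 libraries held none for day 5 of the EpiSC course from 2iL. The 3 protocols therefore stood in as replicates of a day, and the labels do not say whether the 2iL day 0 libraries came from separate cultures, so p-values measure the spread between these libraries only. ESCs grown in 2iL are known for low DNA methylation and ESCs in serum for high methylation. Methylation itself was not measured in the files used here, and the 2iL cells had been passaged only a few times in that medium, so the methylation of these promoters at day 0 is not known from these data.

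Germ cells switch on a set of genes for RNA control, transposon silencing and meiosis that almost all other cells keep off. Many of these genes have CpG-rich promoters that become methylated around implantation and are demethylated again in primordial germ cells. Before methylation arrives, the variant Polycomb complex PRC1.6, with its DNA-binding parts E2f6 and Mga-Max, and the histone methyltransferases Setdb1 and G9a are known to hold them down in ESCs. E2f6 is known to bind sites of the E2F kind and Mga-Max to bind E-boxes.

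The promoters are shown because the methylation and the repressors named above act there. RefSeq windows of 300 bases, 250 before and 50 after the start, on GRCm38.p6 matched 10 of 10 genes, with 2 starts listed for both Hormad1 and Stk31, which gave 12 windows. A window held between 15 and 38 CpG dinucleotides, against a median of 7 over 32851 promoters, and the ratio of observed to expected CpG lay between 0.67 and 0.98 against a median of 0.38. All 12 windows were thus above the median promoter on both measures. Capitals mark the E-box CACGTG, which reads the same on both strands, and the E2F-type motif GCGGGA, searched on both strands, so that TCCCGC is its reverse. The 2 motifs share no letters in the windows shown. Of all promoters, 7.15% held the E-box, 19.98% the E2F-type motif and 1.99% both, and of the 10 genes 7 held the E-box, 6 the E2F-type motif and 6 both. These 6 were Ddx4, Mael, Sycp1, Sycp3, Slc25a31 and Hormad1, while Stk31 held the E-box alone and Dazl, Asz1 and Tex101 held neither. Both motifs contain a CpG, and the set of all promoters was not matched to these windows for CpG content, so the shares are not a like comparison. A match is a description of the letters and says nothing about binding. The windows of 5 genes are shown, with Dazl and Hormad1 as genes at a high level in 2iL, Ddx4, Mael and Sycp3 as genes at a low level there, and Dazl also as a window with neither motif.
Dazl, chr17:50293571-50293870, minus strand: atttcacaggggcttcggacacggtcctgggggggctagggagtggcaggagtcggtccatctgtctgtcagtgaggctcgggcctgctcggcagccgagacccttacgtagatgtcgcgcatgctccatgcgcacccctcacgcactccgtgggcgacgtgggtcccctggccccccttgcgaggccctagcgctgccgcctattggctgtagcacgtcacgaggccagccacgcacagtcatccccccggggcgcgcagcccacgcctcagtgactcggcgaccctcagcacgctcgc
Hormad1, chr3:95559427-95559726, plus strand: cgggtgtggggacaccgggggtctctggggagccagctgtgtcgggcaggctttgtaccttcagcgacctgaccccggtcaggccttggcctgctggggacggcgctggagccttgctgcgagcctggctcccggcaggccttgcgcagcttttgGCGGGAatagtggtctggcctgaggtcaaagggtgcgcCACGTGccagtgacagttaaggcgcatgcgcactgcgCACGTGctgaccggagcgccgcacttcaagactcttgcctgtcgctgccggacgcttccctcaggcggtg
Ddx4, chr13:112652261-112652560, minus strand: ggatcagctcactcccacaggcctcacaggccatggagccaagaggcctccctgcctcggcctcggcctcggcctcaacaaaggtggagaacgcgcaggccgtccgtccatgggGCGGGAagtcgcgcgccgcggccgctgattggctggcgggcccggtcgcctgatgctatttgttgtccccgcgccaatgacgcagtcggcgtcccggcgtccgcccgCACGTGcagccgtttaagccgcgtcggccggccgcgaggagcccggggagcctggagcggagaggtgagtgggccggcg
Mael, chr1:166238695-166238994, minus strand: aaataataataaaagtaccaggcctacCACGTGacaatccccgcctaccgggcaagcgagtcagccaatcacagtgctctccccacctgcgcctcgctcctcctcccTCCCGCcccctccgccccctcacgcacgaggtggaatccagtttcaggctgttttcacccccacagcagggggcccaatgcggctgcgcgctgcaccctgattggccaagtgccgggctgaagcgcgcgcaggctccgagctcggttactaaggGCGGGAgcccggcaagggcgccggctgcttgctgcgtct
Sycp3, chr10:88459337-88459636, plus strand: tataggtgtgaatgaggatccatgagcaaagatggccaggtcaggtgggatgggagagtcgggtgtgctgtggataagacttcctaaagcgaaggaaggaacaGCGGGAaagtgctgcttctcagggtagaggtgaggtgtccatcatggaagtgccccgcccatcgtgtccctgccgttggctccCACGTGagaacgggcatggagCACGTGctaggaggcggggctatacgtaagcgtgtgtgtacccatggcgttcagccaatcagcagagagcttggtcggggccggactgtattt

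Library totals ranged from 13093226 to 39804240 counts with a median of 18222720. Depth was higher in the 8 EB libraries from 2iL, whose median was 34490692 against 17297450 in the other 37. Levels are given as CPM, the counts scaled to the library total, and 3 counts, taken as the floor of detection, correspond to 0.0754 to 0.229 CPM. At day 0 the cells carried stem cell markers, with Pou5f1 at 529 ± 37.9 CPM (SD, n = 3) in 2iL and at 719 CPM in SL. The summed level of 7 stem cell markers ran from 4699 to 4894 CPM at day 0 in 2iL and from 195 to 541 CPM at day 7. The 5 primordial germ cell markers summed to 87.5 to 101 CPM at day 0 in 2iL, to 45.7 CPM in SL and to 16.9 to 27.3 CPM at day 7 from 2iL. Of 8 markers of later germ cells, the sperm protamine gene Prm1 and the transition protein gene Tnp1 were at 0 in every library of day 0 and day 7 from 2iL, while 5 were over 1 CPM on average at day 0. These 8 summed to 44.3 to 61.2 CPM at day 0 in 2iL, 51.7 to 95.1 CPM at day 3 and 27.02 to 94.1 CPM at day 7, and to 66.9 CPM at day 0 in SL. Most of that came from Uchl1, at 22.01 CPM on average at day 0 and 37.8 CPM at day 7 from 2iL, from Stra8, at 20.4 and 0.416 CPM, and from Zbtb16, at 1.13 and 21.7 CPM. The 6 markers of extraembryonic endoderm, a cell type that forms within embryoid bodies, summed to 3.06 to 5.32 CPM at day 0 in 2iL, to 423 CPM in SL, to 223 to 429 CPM at day 3 from 2iL and to between 164 and 2212 CPM at day 7. Their levels were uneven, with Cubn at 230 CPM on average at day 3 from 2iL and Gata4, Gata6 and Sox17 at 5.17, 6.52 and 2.01 CPM. The 7 markers of 2-cell-like cells, a rare state in ESC cultures, summed to 12.2 to 81.1 CPM in 2iL and 369 CPM in SL at day 0, and from 2iL to 59.2 to 367 CPM at day 2.5, 102 to 379 CPM at day 3 and 2.74 to 41.9 CPM at day 7. These markers moved with the comparisons below, and their part in the results was not tested. In such bulk libraries, fewer expressing cells and less RNA per cell cannot be told apart.

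At day 0 the germline genes fell into those with similar levels in both media and those far lower in 2iL. Those lower in 2iL than in SL were 5 genes, namely the helicase gene Ddx4, the piRNA gene Mael, the synaptonemal complex genes Sycp1 and Sycp3, and Slc25a31, which encodes the ADP/ATP carrier of male germ cells. None was called higher in 2iL by edgeR, while Dazl was higher at an unadjusted p of 0.027 and by DESeq2. Of all 14948 genes tested, 17.3% were called lower in 2iL, and the median log2 fold change was -1.63 over the 10 genes and 0.01 over all genes. As SL had 1 library at day 0, every SE and p-value of this comparison holds only the spread between the 3 libraries from 2iL, and the SL library is assumed to vary as they do.

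Mael, whose product is needed for transposon silencing by piRNAs, stood at 2.47, 1.597 and 1.54 CPM in the EB, EpiSC and Neural libraries from 2iL at day 0 and at 46.8 CPM (95% Wilson interval 43.8 to 50.1) in the SL library. The log2 fold change was -4.55 ± 0.25 (SE), with an adjusted p of 2e-05 by edgeR's quasi-likelihood test. Ddx4, the Vasa RNA helicase of germ cells, read 2.65, 2.26 and 2.29 CPM in 2iL and 27.8 CPM (25.4 to 30.3) in SL, a log2 difference of -3.46 ± 0.23 (edgeR adjusted p = 3.9e-05). Both genes were low in every 2iL library, and no 2iL value came near the SL value.

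Sycp3, part of the axis along which meiotic chromosomes fold, read 1.99, 2.79 and 2.43 CPM in 2iL against 37.1 CPM (34.4 to 40.0) in SL. Its log2 difference was -3.91 ± 0.24 (edgeR adjusted p = 2.5e-05). Slc25a31 read 0.743, 0.333 and 0.420 CPM against 8.39 CPM (7.16 to 9.83), and Sycp1, the transverse filament of the synaptonemal complex, 0.654, 0.932 and 0.327 CPM against 4.55 CPM (3.67 to 5.64). Their log2 differences were -3.92 ± 0.43 and -2.81 ± 0.50, with edgeR adjusted p of 0.00034 and 0.0033. All 5 calls held when any 2iL library was left out and when all 45 libraries gave the spread.

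The other 5 genes were not called between media at day 0. Dazl, an RNA-binding protein that licenses germ cell development, was at 86.7, 118 and 58.4 CPM in the 2iL libraries and at 52.3 CPM (49.1 to 55.7) in SL. All its 2iL values were above the SL value, but the log2 difference of 0.79 ± 0.30 missed the threshold (edgeR adjusted p = 0.076). It passed the threshold with DESeq2, without a filter on low counts, or without the Neural library from 2iL. Hormad1, a meiotic axis protein that monitors synapsis, was at 34.6, 51.2 and 35.2 CPM in 2iL around the SL value of 37.4 CPM (34.7 to 40.3). Stk31, a germ cell kinase with a Tudor domain, was at 15.2, 13.0 and 11.8 CPM against 19.0 CPM (17.1 to 21.1), with a log2 difference of -0.45 ± 0.21 (edgeR adjusted p = 0.14). Asz1, a mitochondrial-surface protein of the piRNA pathway, and Tex101, a sperm membrane protein, rested on 45 and 51 counts in the 3 libraries from 2iL and were at or below 1.04 CPM in all 4 libraries, a depth at which only large differences could be called.

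**Figure D1:**
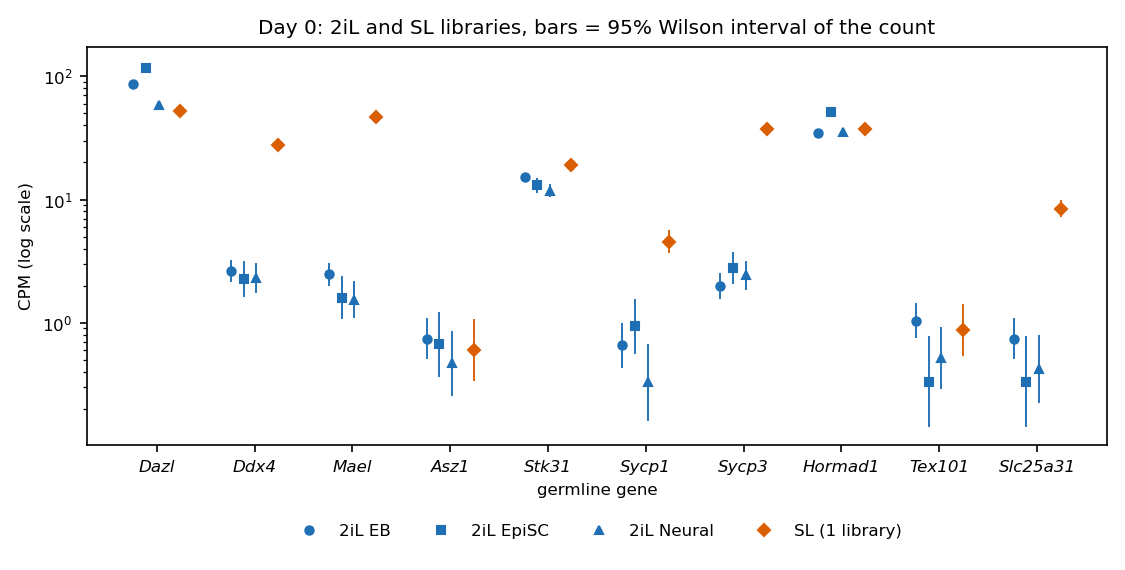
The level of each germline gene at day 0 in CPM on a log axis, with 1 point per library (blue, the 3 libraries from 2iL; orange, the single SL library) and bars for the 95% Wilson interval of the count, which covers counting error only. Ddx4, Mael, Sycp1, Sycp3 and Slc25a31 were lower in all 3 libraries from 2iL than in SL, while Dazl and Hormad1 reached 118 and 51.2 CPM in 2iL.

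Per kilobase of exon, the order of mean levels at day 0 in 2iL was Hormad1 at 23.3 CPM per kb, Dazl at 22.95, Stk31 at 4.12, Sycp3 at 1.90, Mael at 1.08 and Ddx4 at 0.80, with Tex101, Slc25a31, Asz1 and Sycp1 between 0.18 and 0.38. The libraries of Hormad1 and Dazl overlapped, as did those of the lowest 4 genes, so their order within these sets lies inside the spread. In SL the order began with Sycp3 at 29.3 CPM per kb and Mael at 27.03, ahead of Hormad1 at 21.6 and Dazl at 13.7. By day 7 from 2iL, Sycp3 led with 4.47 CPM per kb, and the 2 genes that led at day 0 had come to 0.54 (Hormad1) and 0.23 (Dazl).

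During differentiation from 2iL the genes followed 2 courses. Dazl, Hormad1 and Stk31 were at or near their highest level at day 0 or day 1 and then fell. Ddx4, Mael, Sycp1 and Slc25a31 started low, rose to a maximum at day 2.5 or 3 and fell again by day 7, and Sycp3 rose late and was above its day 0 level at day 7 in all 3 courses. Of the 10 genes, 2 were called higher at day 1, where 14.6% of all genes were. At day 2, 4 were higher and 1 lower, against 23.8% and 20.8% of all genes. At day 3, 5 were higher and 2 lower, against 27.2% and 24.1%, and at day 7 none was higher and 6 were lower, where 33.8% of all genes were higher and 29.9% lower. At an unadjusted p under 0.05 and by DESeq2 there were likewise 0 higher and 6 lower at day 7.

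**Figure D2:**
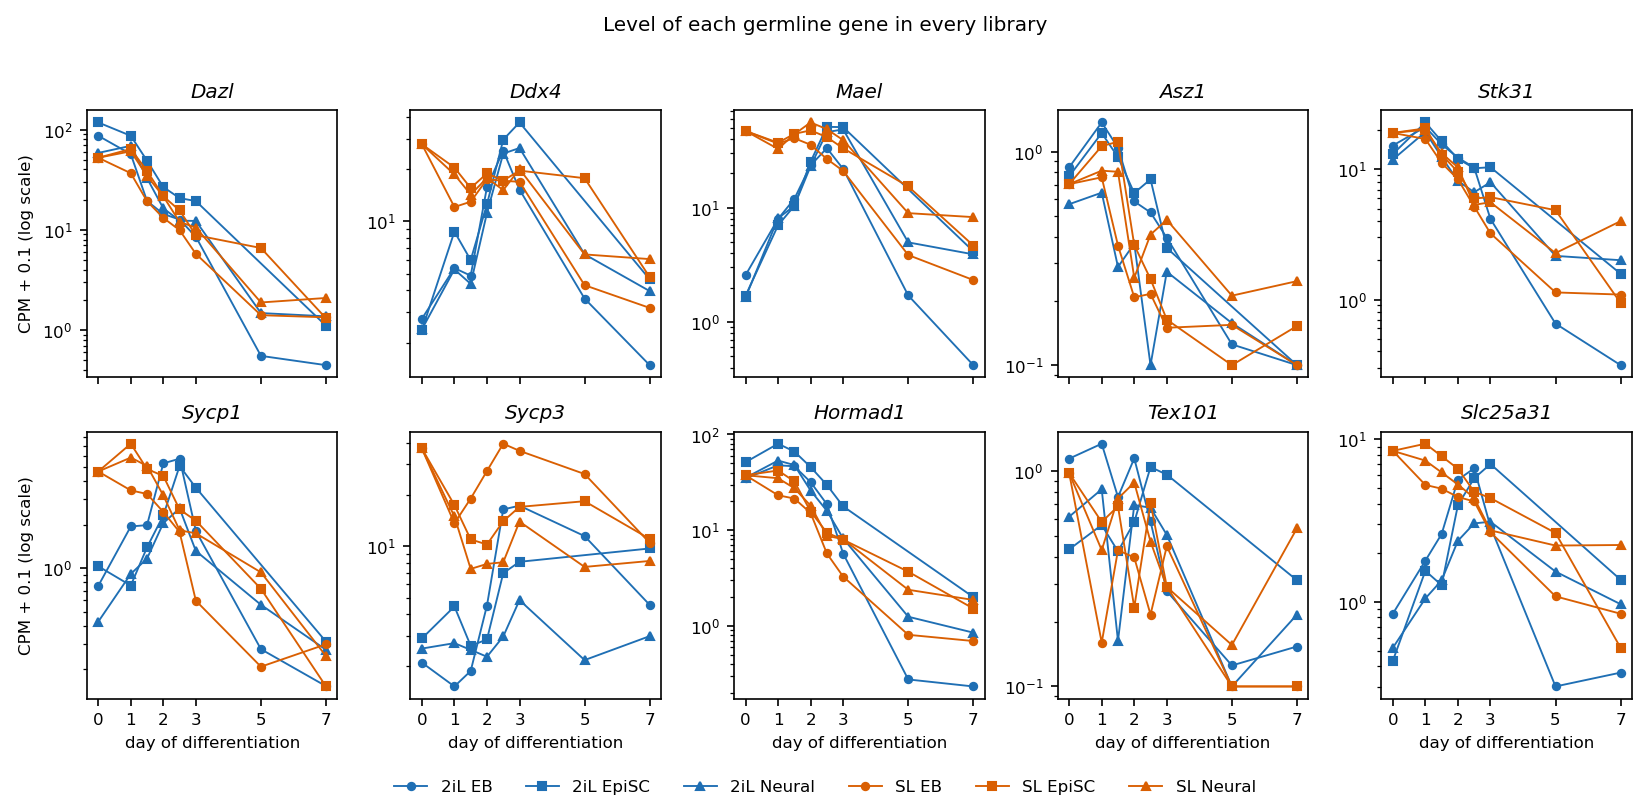
The level of each germline gene in all 45 libraries by day of differentiation, as CPM plus 0.1 on a log axis that differs between panels (blue, from 2iL; orange, from SL; circles EB, squares EpiSC, triangles Neural; the SL courses share their day 0 point and the EpiSC course from 2iL has no day 5). The blue and orange curves of Ddx4, Mael, Sycp1 and Slc25a31 start apart and overlap by day 3, while those of Dazl, Hormad1 and Stk31 start close to each other and fall.

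Dazl started at 87.7 ± 29.7 CPM (SD, n = 3). Its level was 70.8 ± 15.0 CPM after 1 day, 33.6 ± 14.8 after 1.5 days, 19.06 ± 6.61 after 2 days and 13.3 ± 5.51 after 3 days, and 0.873 ± 0.475 CPM was left on day 7. At day 7 it read 0.346, 1.002 and 1.27 CPM in the EB, EpiSC and Neural libraries, which is 0.399% to 2.17% of day 0 in the same course. Its change was called from day 1.5 on, with log2 fold changes of -1.46 ± 0.27, -2.83 ± 0.28 and -6.85 ± 0.36 for days 1.5, 3 and 7 (edgeR adjusted p = 0.00045, 7.4e-07 and 5.8e-10). At day 1.5 it was the only one of the 10 genes called lower, where 18.6% of all genes were.

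Hormad1 went a different way during day 1. It read 34.6, 51.2 and 35.2 CPM at day 0 and 47.6, 79.9 and 53.3 CPM at day 1, a rise in each course of 1.37 to 1.56 times that did not pass the test (log2 0.54 ± 0.36, edgeR adjusted p = 0.28). Without the EB course, Hormad1, Stk31 and Slc25a31 were called higher at day 1 as well. It was called lower from day 2.5 on, at which point 22.3% of all genes were, and 25.3% were called higher. At day 7 it read 0.133, 1.90 and 0.7505 CPM, with a log2 fold change of -5.79 ± 0.48 against day 0 (edgeR adjusted p = 6.1e-08). Stk31 also had its maximum at day 1 in all 3 courses, at 21.1, 22.9 and 19.3 CPM, and came to 0.213, 1.48 and 1.91 CPM at day 7 (log2 -3.72 ± 0.54, edgeR adjusted p = 2.2e-05). The EB library was the lowest of the 3 at day 7 for Dazl, Hormad1 and Stk31.

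Mael rose most. It read 2.47, 1.597 and 1.54 CPM in the EB, EpiSC and Neural libraries before differentiation. The same courses gave 7.88, 6.92 and 7.99 CPM on day 1, then 23.4, 25.2 and 23.001 CPM on day 2, and 33.1, 50.9 and 45.8 CPM on day 2.5. The libraries of days 0, 1, 2 and 2.5 did not overlap. The maximum was 13.4 to 31.9 times the day 0 level of the same course, and the log2 fold change was 4.23 ± 0.57 at day 3 (edgeR adjusted p = 1.6e-05). At day 7 it read 0.319, 4.06 and 3.81 CPM. The EB library was thus below its day 0 value and the other libraries above theirs, and the overall change of 0.19 ± 0.57 was not called.

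Ddx4 began at 2.40 ± 0.215 CPM (SD, n = 3) and reached 6.37 ± 1.96 CPM on day 1, 13.1 ± 2.35 on day 2, 26.5 ± 2.63 on day 2.5 and 26.2 ± 10.97 on day 3. At day 3 it read 15.2, 37.1 and 26.4 CPM, all far above day 0 (log2 3.32 ± 0.34, edgeR adjusted p = 1.2e-06). At day 7 it was back at 3.26 ± 1.66 CPM. Slc25a31 had 0.499 ± 0.216 CPM on day 0 and 5.04 ± 1.88 on day 2.5, with a maximum of 7.17 to 20.9 times day 0, and was called higher at days 2, 2.5 and 3. For Ddx4 the libraries from 2iL and SL did not overlap at day 2.5, at 25.5, 29.5 and 24.5 CPM against 17.1, 17.1 and 15.1 CPM, but the difference was not called (log2 0.69 ± 0.30, edgeR adjusted p = 0.25). Sycp1 rose from 0.638 ± 0.303 to 4.36 ± 1.65 CPM at day 2.5 (log2 2.77 ± 0.54, edgeR adjusted p = 0.00059) and fell to 0.146 ± 0.0824 at day 7, below where it began (log2 -2.24 ± 0.68, edgeR adjusted p = 0.0085).

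Ddx4 and Mael were called higher at every day from day 1 to day 3, including day 1.5, where 20.1% of all genes were called higher, and Ddx4 was also the only one called higher at day 5, where there were 2 libraries and 28.8% of all genes were higher. The other 5 genes called at day 5, Dazl, Asz1, Tex101, Hormad1 and Stk31, were lower, as were 25.3% of all genes. The early calls rest on few libraries. Without the EpiSC course or without the Neural course no gene of the 10 was called at day 1, and without the EB course 5 were. At day 3 the count of 7 became 4 without the EpiSC course, with Sycp1, Sycp3 and Slc25a31 no longer called, and 6 without the Neural course, with Sycp1 lost. These smaller fits are given without their share of all genes called, so the counts describe only how the calls depend on the libraries.

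Sycp3 behaved unlike its partner Sycp1. It stood at 1.99, 2.79 and 2.43 CPM at day 0, showed no call up to day 2, was called higher at days 2.5 and 3, and read 17.1, 8.01 and 4.75 CPM at day 3 (log2 1.85 ± 0.58, edgeR adjusted p = 0.014). At day 7 it was at 4.45, 9.60 and 2.89 CPM, above day 0 in 3 of 3 courses but not called (log2 1.04 ± 0.57, edgeR adjusted p = 0.12). The 3 courses differed in height, with the EB library at 16.3 CPM and the Neural library at 2.87 CPM on day 2.5.

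Asz1 was at 0.743, 0.665 and 0.467 CPM at day 0 and at 1.27, 1.12 and 0.542 CPM at day 1. At day 7 no count was found among 73842768 in the 3 libraries, which with 3 counts over the group as the bound places it at least 15.4-fold lower than at day 0 (edgeR adjusted p = 4.6e-05). Tex101 had 0.629 ± 0.368 CPM before differentiation and 0.127 ± 0.0795 CPM on day 7, where 8 counts remained in the 3 libraries (log2 -2.48 ± 0.80, edgeR adjusted p = 0.013). The Tex101 call was lost without the EB or without the Neural course.

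Between day 3 and day 7 from 2iL, a comparison added after the values had been seen, 8 of the 10 genes were called lower, where 13.9% of all genes were, and the exceptions were Sycp3 (log2 -0.82 ± 0.56) and Tex101 (-2.04 ± 0.82). Among the falls were those of Mael (-4.04 ± 0.56), Dazl (-4.02 ± 0.34) and Sycp1 (-3.98 ± 0.65), the last resting on 9 counts at day 7, with edgeR adjusted p between 1.6e-06 and 0.00059. Slc25a31 and Stk31 were no longer called without the EpiSC course, nor was Asz1 without the EB course. Against day 0, leaving out the EB course made Ddx4, Mael, Sycp3 and Slc25a31 called higher at day 7, and the count of 6 then became 9 in all. The EB library was the lowest of the 3 at day 7 for Ddx4, Mael and Slc25a31, at 1.38, 0.319 and 0.266 CPM.

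**Figure D3:**
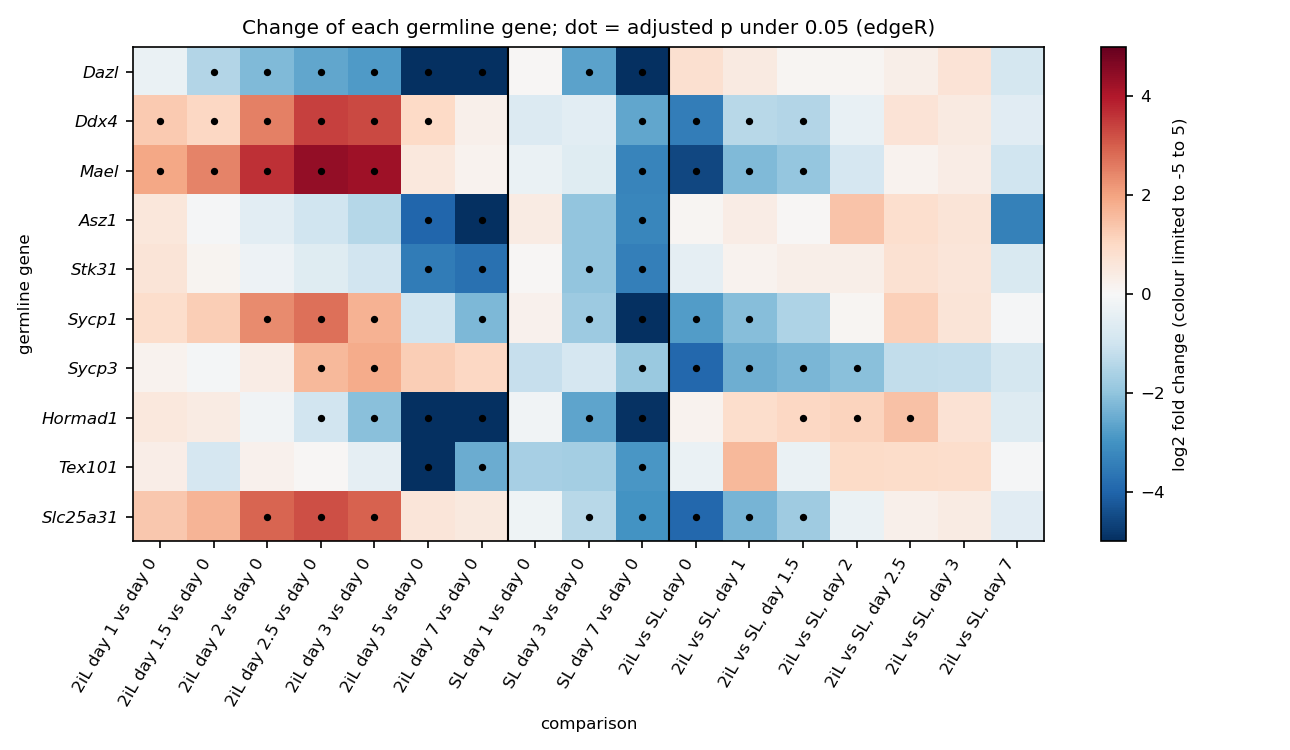
The log2 fold change of each germline gene (rows) in each comparison (columns), with red for higher and blue for lower in the condition named before "vs", colour limited to -5 to 5, and a dot where the edgeR adjusted p was under 0.05. Red cells with dots for Ddx4, Mael, Sycp1, Sycp3 and Slc25a31 in the middle days from 2iL stand beside blue cells with dots for the same genes in 2iL against SL at days 0 and 1.

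Fewer of the genes were called between media at later days. At day 1 the same 5 genes as at day 0 were lower from 2iL than from SL, where 7.63% of all genes were, with log2 differences from -2.44 ± 0.50 (Sycp3) to -1.40 ± 0.31 (Ddx4). That count fell to 1 without the EpiSC course and to 3 without the Neural course. At day 1.5, 4 of them (Ddx4, Mael, Sycp3 and Slc25a31) were lower, where 6.55% of all genes were, and at day 2 Sycp3 alone (-2.10 ± 0.49, edgeR adjusted p = 0.0081), where 4.49% were. The Sycp3 call at day 2 was lost without the EpiSC course, without the Neural course or without the block for protocol. From SL, Sycp3 read 39.5 CPM in the EB library and 7.96 CPM in the Neural library of day 2.5.

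Hormad1 showed the opposite sign. It was higher from 2iL at days 1.5, 2 and 2.5, where 5.54%, 3.77% and 1.81% of all genes were higher, with log2 differences of 1.03 ± 0.34, 1.11 ± 0.35 and 1.46 ± 0.36 (edgeR adjusted p = 0.049, 0.044 and 0.025). At day 2 it read 31.7, 45.6 and 25.9 CPM from 2iL and 15.0, 15.6 and 17.9 CPM from SL, and the media did not overlap. The calls were near the threshold, and all 3 were lost without the EpiSC course, without the Neural course or without the block for protocol. At day 3 and at day 7 none of the 10 genes was called in either direction, where 0.571% and 0.0911% of all genes were. At an unadjusted p under 0.05 there were 2 and 3 of them, and DESeq2 called 0 at both days.

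In the SL courses, Ddx4 and Mael were not called at day 3. Mael read 46.8 CPM at day 0, 35.4, 47.4 and 55.6 CPM at day 2 and 20.9, 33.0 and 38.9 CPM at day 3 in the EB, EpiSC and Neural libraries. Ddx4 read 27.8 CPM at day 0 and 16.8, 19.5 and 19.9 CPM at day 3. The log2 fold changes at day 3 were -0.62 ± 0.42 for Mael and -0.54 ± 0.40 for Ddx4. The 5 genes lower by day 3, where 14.8% of all genes were, were Dazl, Sycp1, Slc25a31, Hormad1 and Stk31. Without a block for protocol the count was 3, with Sycp1 and Slc25a31 lost, and without the EB course Slc25a31 and Stk31 were lost. By day 7 all 10 were lower than at day 0, where 21.0% of all genes were, from -1.87 ± 0.43 for Sycp3 to -5.14 ± 0.38 for Dazl. Tex101 rested on 16 counts at day 0, and its call was lost with DESeq2, without the block and without the EB or the EpiSC course. These comparisons share the single SL library of day 0.

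Tested as a difference of changes, the change from day 0 to day 3 was higher from 2iL than from SL for Ddx4 (log2 3.82 ± 0.51), Mael (4.79 ± 0.69), Slc25a31 (4.24 ± 0.87), Sycp1 (3.40 ± 0.87) and Sycp3 (2.60 ± 0.79), with edgeR adjusted p from 7.5e-06 to 0.025, where 7.52% of all genes had a higher change from 2iL. For Dazl, Hormad1 and Stk31 the differences in change at day 3 were -0.20 ± 0.48, 0.50 ± 0.57 and 0.97 ± 0.74 and were not called. At day 7, 4 genes (Ddx4, Mael, Sycp3 and Slc25a31) had a higher change from 2iL, against 9.04% of all genes, and Dazl had a lower one (-1.75 ± 0.56, edgeR adjusted p = 0.031), against 7.53%. At day 3, Sycp1, Sycp3 and Slc25a31 were no longer called without the EpiSC course, nor were Sycp1 and Sycp3 without the Neural course. At day 7 the count of 5 was 1 (Ddx4) without the EpiSC course and 3 without the block, and the Dazl call was also lost without the EB course and without TMM normalization. Each of these differences contains the gap between media at day 0 and rests on the 1 SL library of that day.

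Among protocols at days 5 and 7, both media together, 5 of the 7 germline genes that could be tested were lower in embryoid bodies than in the Neural protocol, and Sycp3 was higher. Against the Neural protocol, EB was lower for Mael (log2 -2.07 ± 0.42), Hormad1 (-2.12 ± 0.43), Stk31 (-2.12 ± 0.56), Slc25a31 (-1.86 ± 0.55) and Ddx4 (-1.09 ± 0.31), where 15.7% of all genes were lower, and higher for Sycp3 (1.20 ± 0.37), where 13.1% were higher. The edgeR adjusted p ran from 0.011 to 0.044. Sycp3 read 11.4 CPM (EB) and 2.06 CPM (Neural) at day 5 from 2iL, and 26.3 and 7.47 CPM from SL. Leaving out 1 medium and day at a time brought the 6 calls to between 1 and 5, with the fewest without day 5 from SL.

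Against the EpiSC protocol, EB was lower for Hormad1 alone (-2.56 ± 0.47, edgeR adjusted p = 0.033), where 1.74% of all genes were, and this call was lost whichever medium and day was left out. Mael was next at -2.07 ± 0.46 (edgeR adjusted p = 0.058). Between EpiSC and Neural none of the 7 genes tested was called by edgeR, where 16.2% of all genes were. There was 1 at an unadjusted p under 0.05, and DESeq2 called 1 (Sycp3). Sycp1, Asz1 and Tex101 were too low to be tested between protocols. Days 5 and 7 of a course may share cultures, so these p-values may be too small. At day 7 the extraembryonic endoderm markers summed to 218, 164 and 2212 CPM in the EB, EpiSC and Neural libraries from 2iL and to 1497, 109 and 2674 CPM in those from SL, and the 2-cell-like markers to 2.74, 4.69 and 41.9 CPM and 14.7, 30.2 and 75.3 CPM. In the same order the 4 mesoderm markers summed to 144, 19.3 and 5.5996 CPM from 2iL and 144, 19.5 and 7.29 CPM from SL, and the neural markers to 92.6, 313 and 363 CPM and 149, 258 and 238 CPM. Their part in the differences between protocols was not tested.

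Over all 45 libraries the genes grouped by the shape of their courses. Pearson's r of log2(CPM + 0.1) had a median of 0.878 (0.761 to 0.940) over the 6 pairs of Ddx4, Mael, Sycp1 and Slc25a31, and of 0.829 (0.644 to 0.965) over the 10 pairs of Dazl, Hormad1, Stk31, Asz1 and Tex101. Between these sets the median was 0.424 (0.156 to 0.752), and for Sycp3 with the other 9 genes it was -0.193 (-0.274 to 0.485). The sets were drawn up after the values had been seen, and the libraries share courses and, in SL, a day 0 sample, so r is a description. The highest pair was Hormad1 with Stk31 at 0.965.

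**Figure D4:**
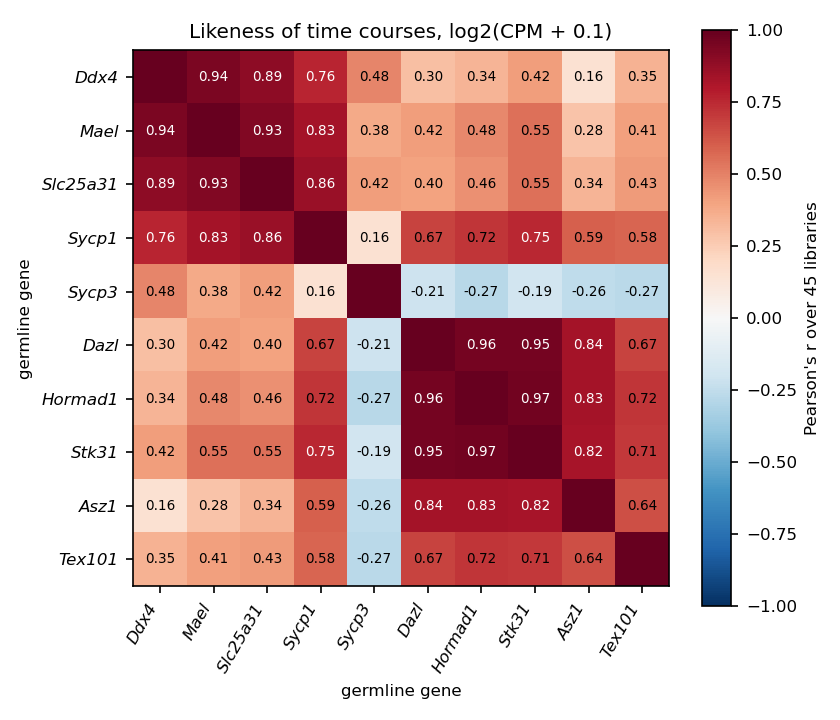
Pearson's r of log2(CPM + 0.1) for each pair of germline genes over 45 libraries, red for positive and blue for negative. The 2 red blocks are Ddx4, Mael, Slc25a31 and Sycp1 (0.76 to 0.94) and Dazl, Hormad1, Stk31, Asz1 and Tex101 (0.64 to 0.97). The row of Sycp3 is drawn between them, with r from -0.27 to 0.48. Sycp1 also reached 0.75 with Stk31 of the other block, near its 0.76 with Ddx4.

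Other genes of the same pathways were taken from lists, with all 14 of the other piRNA genes present. Of 12 tested at day 0, 7 were lower in 2iL than in SL and 1 was higher, with a median log2 difference of -1.81. Over all genes 17.3% were lower and 13.5% higher, and for every list the SE and p of day 0 again hold only the spread between the 2iL libraries. The largest were Piwil2 (-4.26 ± 0.25), Tdrd1 (-3.53 ± 0.63) and Mov10l1 (-3.12 ± 0.24), which encode a PIWI protein, a Tudor protein and a helicase of the pathway, and the exception was Tdrd12 (1.30 ± 0.26). By day 3 from 2iL, 8 of 13 were higher and 1 lower, where 27.2% and 24.1% of all genes were. By day 7, with 33.8% of all genes higher and 29.9% lower, 5 of the 13 were higher than at day 0, led by the Tudor-domain genes Tdrkh (4.71 ± 0.52), Tdrd7 (4.15 ± 0.39) and Tdrd5 (3.97 ± 0.51), and 6 were lower, led by Gtsf1 (-4.73 ± 0.61), Tdrd12 (-3.51 ± 0.40) and Piwil1 (-3.09 ± 0.63). From 2iL, Tdrd7 stood at 4.84 ± 2.48 CPM at day 3 and 15.5 ± 5.48 CPM at day 7, and Tdrd1 at 9.48 ± 1.30 and 2.43 ± 1.39 CPM.

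Of 19 other meiosis genes listed, 17 were found in the files. Of 16 tested at day 0, 8 were lower in 2iL, among them Syce3 (-3.71 ± 0.73), Mei1 (-3.64 ± 0.75) and Sycp2 (-3.53 ± 0.50), and Stra8, the retinoic acid-induced gatekeeper of meiosis, was higher (0.79 ± 0.23). Over all genes 17.3% were lower and 13.5% higher in 2iL at day 0. From 2iL, 7 of 17 were higher and 1 lower at day 3, and 1 was higher and 8 lower at day 7, against 27.2% higher and 24.1% lower over all genes at day 3 and 33.8% and 29.9% at day 7. The largest fall at day 7 was that of Stra8 (-8.37 ± 1.62), followed by Syce1 (-3.37 ± 0.49), and the exception was Msh5 (1.55 ± 0.36). Among 17 other germline genes tested, 4 were higher and 4 lower in 2iL at day 0, with Taf7l at -4.68 ± 0.33 and Tuba3b and Tuba3a, near-identical tubulin copies whose reads may be split, at 2.28 ± 0.35 and 2.24 ± 0.19. At day 7 from 2iL, 12 of the 17 were lower and 1 higher (Ddx25, 3.23 ± 0.31), with D1Pas1 at -6.25 ± 0.49. All the values named for the piRNA, meiosis and other germline lists are edgeR log2 fold changes with SE, and their adjusted p was at most 0.029.

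The primordial germ cell regulators moved the other way from Ddx4 and Mael at day 0. Of 7 tested, 5 were higher in 2iL than in SL, led by Nanos3 (5.50 ± 0.82), Dppa3 (4.41 ± 0.58) and Kit (3.16 ± 0.22), and Dnd1 was lower (-1.51 ± 0.39). Over all genes 13.5% were higher and 17.3% lower in that comparison. At day 3 and at day 7 from 2iL 5 of 7 were lower than at day 0, where 24.1% and 29.9% of all genes were, Dnd1 was higher at day 3 (1.05 ± 0.41, edgeR adjusted p = 0.041), and at day 7 Prdm14 fell by 6.46 on the log2 scale.

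Of the 8 genes of the DNA methylation machinery, Dnmt3l (-5.35 ± 0.36), Dnmt3a (-1.22 ± 0.30) and Dnmt3b (-0.97 ± 0.17) were lower in 2iL than in SL at day 0, and Uhrf1, which brings Dnmt1 to replicated DNA, was higher (0.88 ± 0.23). From 2iL, Dnmt3a had 23.2 ± 7.05 CPM before differentiation, 149.8 ± 40.9 on day 3 and 103 ± 20.5 on day 7, and Dnmt3l went from 6.75 ± 3.57 to 161 ± 87.3 and back to 17.0 ± 11.4 CPM. At day 3 from 2iL 4 of the 8 were higher than at day 0 and 4 lower, where 27.2% and 24.1% of all genes were. At day 7, 3 were higher and 4 lower, where 33.8% and 29.9% were. The higher ones at day 7 were Dnmt3a (2.06 ± 0.31), Tet3 (1.63 ± 0.21) and Dnmt3b (1.62 ± 0.53). Tet2 and Tet1, which oxidise methylated cytosine, were lower at day 7 (-3.77 ± 0.40 and -2.49 ± 0.22), as were Uhrf1 (-1.61 ± 0.15) and Dnmt1 (-0.63 ± 0.10). Among the 13 genes of the repressors of germline genes, 2 were higher and 1 lower in 2iL at day 0, where 13.5% and 17.3% of all genes were. Of these, E2f6 was lower (-0.73 ± 0.19), and Setdb1 (0.64 ± 0.19) and Cbx3 (0.70 ± 0.18) were higher. By day 7 from 2iL, 4 of the 13 were higher and 6 lower, where 33.8% and 29.9% of all genes were. E2f6 (1.32 ± 0.16), Ring1 (1.25 ± 0.26), Ehmt1 (1.07 ± 0.10) and Rnf2 (0.30 ± 0.11) were higher. Trim28 (-1.28 ± 0.13), L3mbtl2 (-1.21 ± 0.19), Setdb1 (-1.12 ± 0.08), Pcgf6 (-0.57 ± 0.11), Mga (-0.51 ± 0.11) and Max (-0.36 ± 0.10) were lower. The adjusted p of the other values named for the regulators, the methylation machinery and the repressors was at most 0.034. Whether these RNA levels bear on the germline genes was not tested.

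**Figure D5:**
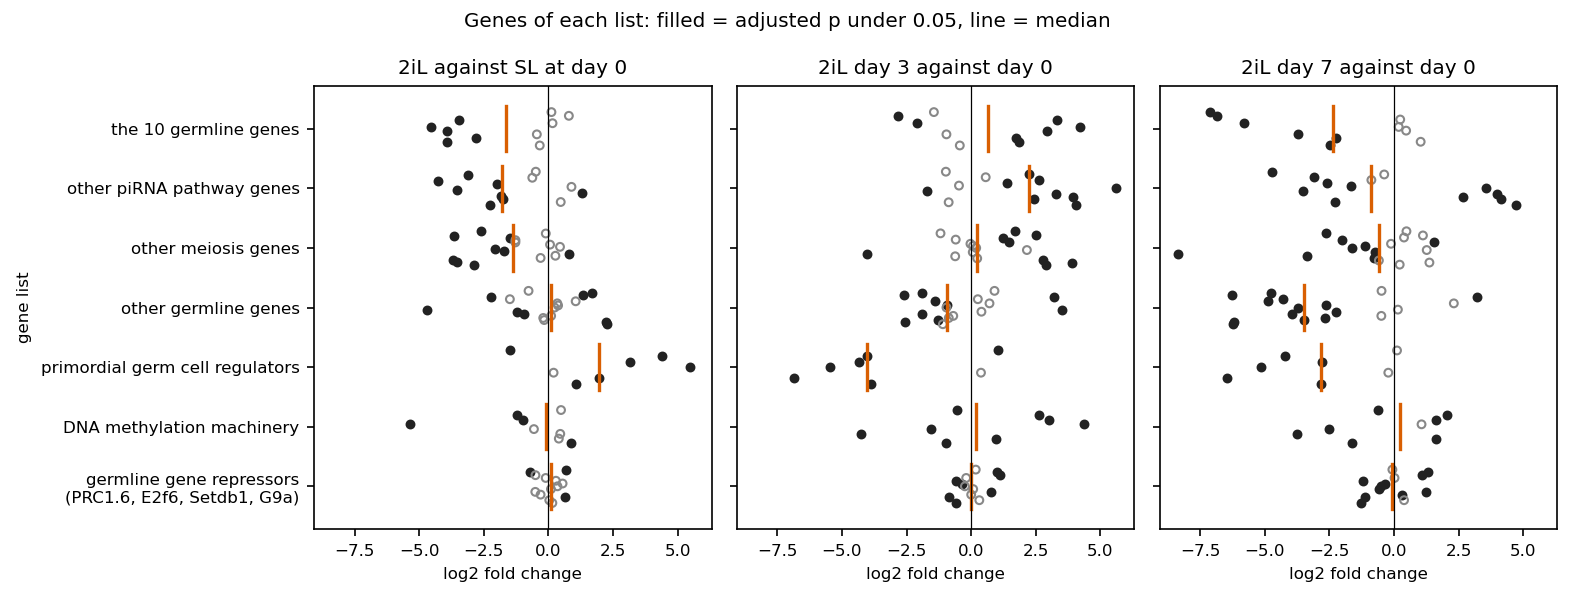
The log2 fold change of each tested gene of 7 lists (rows) in 2iL against SL at day 0 and in 2iL at days 3 and 7 against day 0, with filled points for an edgeR adjusted p under 0.05, open points otherwise and an orange line at the median. The median of the 10 germline genes was -1.63, 0.65 and -2.36, and that of the other piRNA genes -1.81, 2.23 and -0.87.

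The 5 genes most like the mean course of the 10, among 15317 genes that reached 1 CPM in at least 3 libraries, were Piwil2 (r = 0.930), Nlrp14 (0.921), CN725425 (0.913), Rbm44 (0.912) and Trim52 (0.907). The likeness is Pearson's r of log2(CPM + 0.1) with the mean of the genes' z-scores over 45 libraries and is given as a description. The 10 genes did not share 1 course, so this mean mixes different shapes. The median r was 0.424 between the 2 sets above and -0.193 for Sycp3 with the others. Piwil2 stood at 1.69 CPM on average in 2iL and 34.4 CPM in SL at day 0, and at 1.10 CPM at day 7 from 2iL. Trim52 read 0.778, 8.50 and 0.0457 CPM in these groups, and Rbm44 4.77, 10.4 and 0.570 CPM. With a pseudocount of 1 CPM, or without the EB course from 2iL, 4 of the 5 were the same.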

How the data were processed

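Total RNA of 45 libraries was depleted of ribosomal RNA and sequenced with a directional kit. The authors trimmed the reads with TrimGalore, mapped them to GRCm38 with TopHat2 guided by Ensembl models and allowing 1 mismatch, and assigned them to genes by strand with featureCounts. The deposited values are raw counts per gene, not normalized, and tool versions were not given in the labels. A total of 435 rows without a symbol held at most 0.0014% of the counts of a library. Since the counts are strand-specific, genes on the opposite strand of Sycp1, Sycp3 and Stk31 should not add to them.

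From the counts, CPM over the library total, Wilson intervals (95%, counting error only) and exon length per gene (GENCODE models of GRCm38, in which 34599 of 35372 genes were found) were computed with Python 3.11.15. Tests used edgeR 4.0.16 in R 4.3.3 (quasi-likelihood F test, TMM, filterByExpr, Benjamini-Hochberg adjustment over all genes tested, threshold 0.05), and DESeq2 1.42.0 served as an alternative. The edgeR test gives no SE, so each SE was derived as the size of the log2 fold change over the square root of the F statistic. Days within 2iL were fitted to 23 libraries and days within SL to 22, media from day 1 on to 41, media at day 0 to 4, the difference in change to all 45 and protocols to the 11 libraries of days 5 and 7, with protocol as a block except at day 0. No library was dropped or imputed. The scripts were tested on simulated counts.

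Protocol pairs libraries through the labels, since it names the differentiation culture. Deviations of libraries of the same protocol from their day's mean correlated at 0.405 on average in 2iL and 0.423 in SL over 15328 genes, against -0.195 and -0.203 between protocols. Deviations from a mean of 3 libraries sum to 0, so the negative values follow from the positive ones and add no support. From day 1 on the likeness also holds the effect of the differentiation condition, so it does not show shared cultures. The day 0 libraries from 2iL, labelled by the protocol that followed, correlated at 0.172 with later days. No 2 libraries were copies, the smallest chi-square per degree of freedom being 8.55 over 990 pairs.

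The 10 genes, the other gene lists and the markers were chosen with earlier results of these data known. Of each other list, the genes named were taken from the up to 3 with the largest rise and fall among those called at day 7 against day 0 from 2iL or between media at day 0. Not all of these are named. Further genes whose CPM or fold change is given (Tdrd1, Dnmt3l, Dnmt1 and Mga among them) belong to the same lists. Alternatives were DESeq2, library totals in place of TMM, no filter, no block, other sets of libraries in the fit and leaving out each course or day in turn.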

Additional observations from a re-analysis of the deposited data

Results flagged for a closer look

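The changes of 6 germline genes differed between media by a test of the difference itself, in the fit to all 45 libraries by edgeR. From day 0 to day 3, the change from 2iL exceeded that from SL by 3.82 ± 0.51 (log2, SE) for Ddx4, 4.79 ± 0.69 for Mael, 3.40 ± 0.87 for Sycp1, 2.60 ± 0.79 for Sycp3 and 4.24 ± 0.87 for Slc25a31, with edgeR adjusted p of 7.5e-06, 2.1e-05, 0.0083, 0.025 and 0.0013. From day 0 to day 7 the differences were 2.82 ± 0.53 for Ddx4, 3.44 ± 0.73 for Mael, 2.93 ± 0.80 for Sycp3 and 3.30 ± 0.93 for Slc25a31, and -1.75 ± 0.56 for Dazl, with edgeR adjusted p of 0.00045, 0.0015, 0.011, 0.015 and 0.031. All rest on the single SL library of day 0, whose 2-cell-like markers summed to 369 CPM against 12.2 to 81.1 CPM in the 2iL libraries of that day and whose extraembryonic endoderm markers summed to 423 CPM against 3.06 to 5.32 CPM. The part of these markers was not tested.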

How the results depend on the processing

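Of 1734 values of single germline genes under alternatives, 1597 kept their call or stayed uncalled, 100 lost the call and 37 gained one. Of those called in the main fit or in the alternative, 0 changed direction. The direction of values uncalled in both was not compared. With TMM factors, the mean levels of the 10 genes at days 0 and 7 from 2iL moved by less than the SD between the 3 libraries or did not move in 20 of 20 cases. The number of germline genes called changed by over 1.5 times as follows. For SL day 3 against day 0, the main count of 5 was 3 with all 45 libraries in the fit and 3 without the replicate block. For the difference in change at day 7 it was 3 without the replicate block. Without it the counts for the media at days 2 and 2.5 also went from 2 and 1 to 0 and 0. For EB against EpiSC the count of 1 was 3 with DESeq2 and 6 with all libraries from day 1 on in the fit, and for EpiSC against Neural the count of 0 was 1 in both.

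Leaving out 1 course at a time gave 0 to 5 calls for day 1 in 2iL, 4 to 7 for day 3, 1 to 6 for the media at day 1 and 1 to 5 for the change at day 7. Leaving out 1 medium and day gave 0 to 0 for EB against EpiSC and 1 to 5 for EB against Neural. In each case fewer libraries entered the fit. Counts under all these alternatives are given without the share of all genes called in the same fit, so they describe the calls and not a trait of these genes. With 2 libraries per day, or 1 library of SL at day 0, small changes of the low genes Asz1, Tex101 and Sycp1 were out of reach, since 3 counts correspond to up to 0.229 CPM.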
